A study of Mus musculus with 2 samples.

Results

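Cell barcodes in which more than 10% of the unique molecular identifiers (UMIs, each counted as 1 captured molecule) came from genes of the mitochondrial genome were examined in the mouse endometrium on day 3 of pregnancy. They were selected on that share alone, and 575 of 7908 barcodes (7.27%) passed it, 280 of 5783 in the library from an Erbb3 f/f control uterus and 295 of 2125 in the library from an Erbb3 d/d uterus. In Erbb3 d/d mice the gene for the receptor ErbB3 was deleted in the stroma, per the series' design text. The driver of the deletion and the number of animals behind each library are not given in the sources used here. Both tissues were collected at 9 AM, fixed, dissociated and profiled with 10x Chromium Flex, in which probes are hybridised to RNA in fixed cells and 19070 genes were read, 13 of them mitochondrial. With 1 library per genotype and no replicate, no difference between genotypes or groups of barcodes was tested. Intervals are 95% and cover counting error only, and cells of a library are not replicates.

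Mitochondrial DNA encodes subunits of the respiratory chain and of ATP synthase, while all other subunits are made from nuclear genes and imported. A high mitochondrial share of captured RNA is widely used in single-cell work as a mark of damaged cells, but cells rich in mitochondria also reach high shares. In the uterus, the luminal and glandular epithelium, the underlying stroma, vessels, immune cells and the mesothelium of the outer surface can all contribute barcodes, and the epithelium and stroma change under estrogen and progesterone in the days before implantation.

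The share of barcodes above the limit was 4.84% (4.30 to 5.43%) in f/f and 13.9% (12.4 to 15.4%) in d/d, a difference of 9.04 percentage points (7.48 to 10.7). Genotype and library cannot be told apart here. The median share over all barcodes was 0.804% in the f/f library and 1.36% in d/d. Although few, the high-share barcodes held 82.3% of all mitochondrial UMIs in the f/f library and 91.0% in d/d, and 13.1% and 30.3% of the nuclear UMIs. Just inside the limit the 3 nearest barcodes were at 10.02 to 10.1% in both libraries, and just outside at 9.94 to 10.00% in f/f and 9.91 to 9.94% in d/d, so the limit fell in a continuous slope rather than in a gap.

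**Figure D1:**
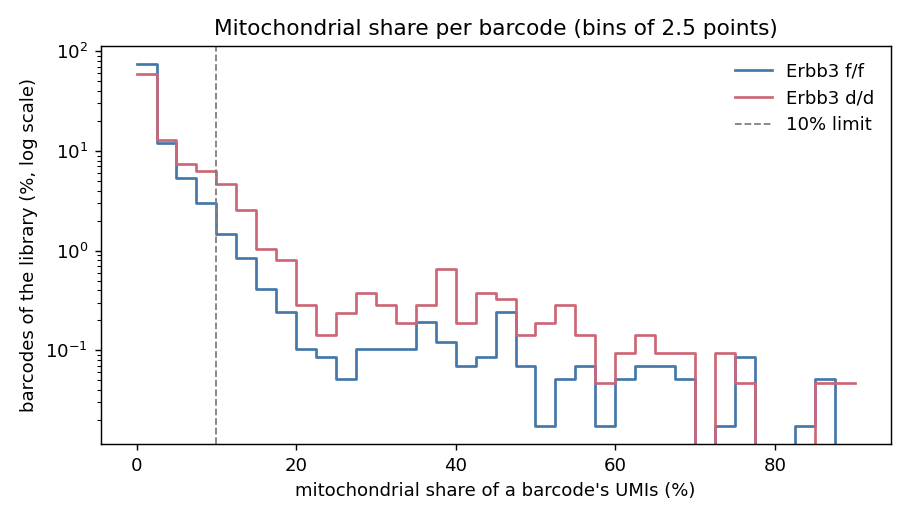
Percentage of each library's barcodes (y axis, log scale) by mitochondrial share of UMIs (x axis, bins of 2.5 percentage points), with the 10% limit dashed. Both libraries fall steeply up to 20% and then carry a flat tail that reaches 87.0% in the f/f library and 90.8% in d/d.

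All 13 mitochondrial genes, which the selection used, contributed to the high share. In f/f, mt-Co2, a subunit of cytochrome c oxidase, made up 6.86% of the UMIs of high-share barcodes and 0.315% of those of the other barcodes. In d/d the same gene made up 6.88% and 0.435%. The complex I subunits mt-Nd1, mt-Nd2 and mt-Nd5 and the complex III subunit mt-Cytb, the markers given for these barcodes, were detected in at least 90.5% of the high-share barcodes of either library, against 21.5 to 57.3% of the others.

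The mitochondrial genes were not higher in proportion. The gene mt-Nd6, the only protein gene on the light strand of mitochondrial DNA, supplied 2.10% of the mitochondrial UMIs of high-share barcodes against 11.1% of the others in f/f, and 3.02% against 11.8% in d/d. Within barcodes above 20% it supplied 1.53% (1.497 to 1.57%) in the f/f library and 2.28% (2.24 to 2.33%) in the d/d library, whereas between 10 and 20% it supplied 7.61% and 10.5%. In barcodes named epithelium-like below, the value was 10.4% at shares up to 2% and 1.40% above 20% in f/f, and 6.64% and 2.10% in d/d. Each of the other 12 genes kept a portion of the mitochondrial UMIs in high-share barcodes that was closer to that in the other barcodes, with mt-Co2 at 18.4% and 16.7% in f/f and at 18.6% and 17.7% in d/d.

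To ask which cells the high-share barcodes came from, all barcodes of both libraries were clustered on nuclear genes alone, and clusters were named from marker lists as "X-like". Of the high-share barcodes 109 of 280 in f/f (38.9%) and 95 of 295 in d/d (32.2%) were epithelium-like. Mesothelium-like barcodes made up 17.5% and 17.6%, stroma-like 10.4% and 8.14%, endothelium-like 9.64% and 5.08%, and macrophage-like 6.07% and 9.49%. Another 17.1% and 27.5% lay in clusters that met no naming rule. One f/f barcode had fewer than 200 nuclear genes and was not clustered.

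Of the other barcodes, 55.9% (f/f) and 64.5% (d/d) were epithelium-like and 22.8% and 10.4% stroma-like. The epithelium-like class thus took a smaller part of the high-share barcodes than of the rest in both libraries, and the stroma-like class did in f/f. For the stroma-like class in d/d the intervals overlapped, at 5.28 to 11.9% of high-share and 9.02 to 11.9% of other barcodes. Seen within each class, 3.42% of epithelium-like barcodes from f/f and 7.45% in d/d were above the limit, and 2.26% and 11.2% of stroma-like ones. The mesothelium-like class reached 12.01% and 26.3%, the macrophage-like class 9.39% and 27.5%, and the endothelium-like class 11.6% and 19.5%. The d/d value was the higher one in each of these 5 classes. Intervals of the difference cover counting error over barcodes, which are not replicates, and included 0 only for the endothelium-like class (-1.63 to 19.1 points). All 5 classes of a genotype came from the same library. Genotype and library therefore cannot be told apart in these values, and a difference between genotypes was not tested. The epithelium-like class was made of different clusters in the 2 libraries. In f/f 1576 of its 3186 barcodes were in a cluster led by Slc5a11, Rims3 and Lrp2, and in d/d 590 of its 1276 were in a cluster led by mitotic genes such as Prc1 and Top2a.

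A limit of 20%, applied as an alternative, separated the high-share barcodes into a shallow and a deep set that differed in lineage. The first set, with shares from 10 to 20%, held 170 barcodes from f/f and 192 in d/d, of which 13 (7.65%) and 14 (7.29%) were epithelium-like. Mesothelium-like barcodes were its largest named class, at 28.8% and 26.6%. Its median was 881.5 nuclear UMIs in the f/f library and 788 in d/d, against 798 and 750 in the other barcodes. The second set, above 20%, held 110 and 103 barcodes, of which 96 (87.3%) and 81 (78.6%) were epithelium-like and none was stroma-like, with exact 95% upper bounds of 3.30% for f/f and 3.52% for d/d. Its medians were 3252 and 3031 nuclear UMIs and 2133 and 2170 nuclear genes. Depth therefore differed between the sets by more than 3-fold, and the part of depth in the differences below was not tested, apart from the values at matched depth given with them.

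**Figure D2:**
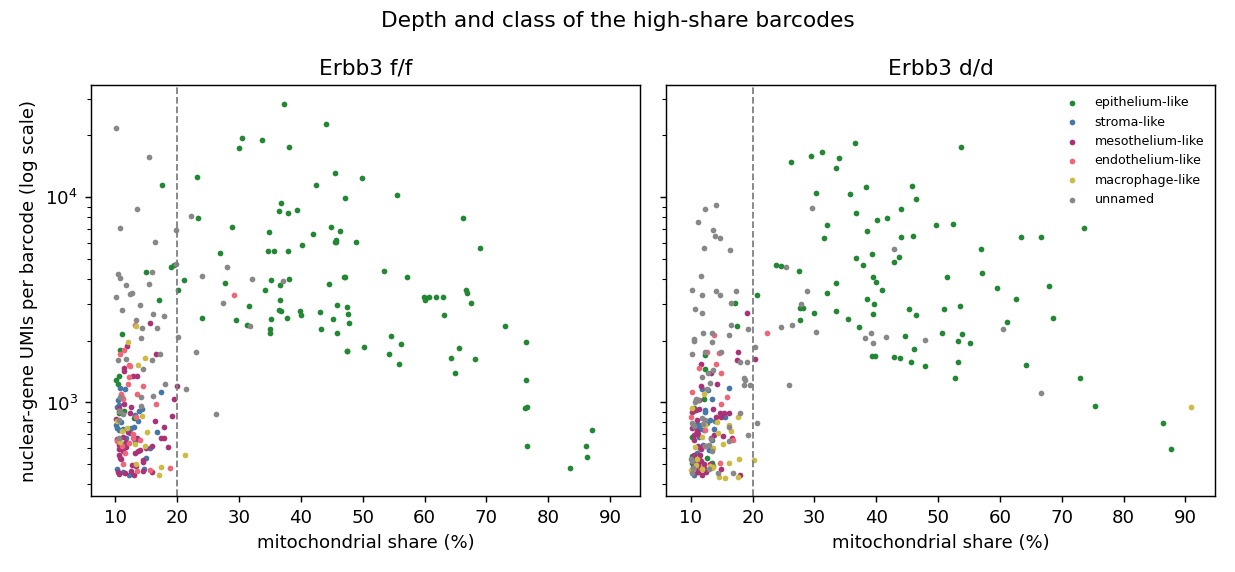
Nuclear UMIs (y axis, log scale) against mitochondrial share (x axis) of every clustered high-share barcode, 1 point each, coloured by class, with f/f on the left and d/d on the right. Right of the dashed line at 20% the points are mostly epithelium-like (96 of 110 and 81 of 103) and deeper than those left of it.

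**Figure D3:**
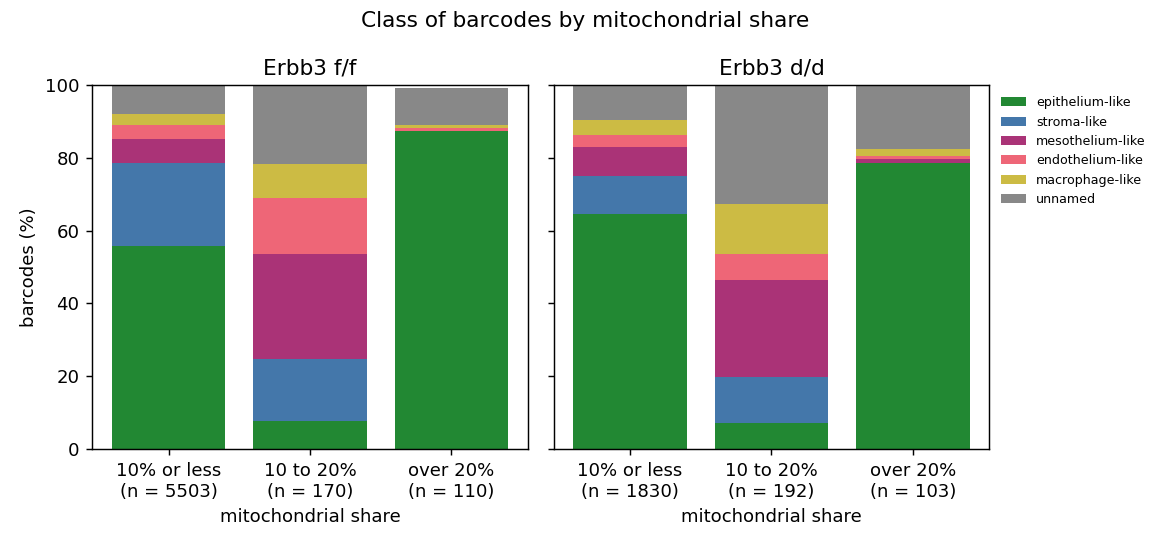
Percentage of barcodes in each class (y axis) for barcodes at or below 10%, from 10 to 20% and over 20% (x axis), with f/f on the left and d/d on the right and the number of barcodes under each bar; 1 f/f barcode that was not clustered leaves the last bar short of 100%. The epithelium-like part is 7.65% and 7.29% in the middle bars and 87.3% and 78.6% in the last ones.

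Most epithelium-like barcodes above the limit sat in 1 cluster. It held 154 barcodes (91 f/f, 63 d/d), and 80 and 62 of these were above 10%, with a median share of 43.0% although no mitochondrial gene entered the clustering. Its leading genes were Ltf, which encodes the estrogen-induced secretory protein lactoferrin, then Actg1, Rdx, Eef1a1, Ifitm1, S100a11, Sprr2f, Mt2, Gstm1 and Tpt1. Luminal markers stood at 3578 CPM (a gene's UMIs over all nuclear UMIs of the barcodes, scaled to 1000000) in it and glandular markers at 199 CPM. A further 21 f/f and 4 d/d epithelium-like barcodes above the limit lay in the cluster led by Slc2a3, Syn2 and Gulo, which had the highest glandular level of the epithelium-like clusters (807 CPM), and 2 and 22 in the mitotic cluster. Among clusters without a name, one led by Myh11, Igha, Acta2 and Igkc combined muscle, pericyte and immunoglobulin genes. In it, 45 of 175 f/f barcodes (25.7%) and 73 of 189 d/d barcodes (38.6%) were high-share, larger parts than in any named class.

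Levels of the marker genes followed the same division. Above 20%, the 12 epithelial markers together were higher than in the other barcodes by 1.28 on the log2 scale (1.23 to 1.33) in f/f and by 0.87 (0.80 to 0.93) in d/d. From 10 to 20% they were lower, at -0.41 (-0.54 to -0.29) and -0.77 (-0.91 to -0.64). Cldn3, a tight-junction claudin, stood at 1830 CPM above 20%, 361 CPM from 10 to 20% and 353 CPM in the other barcodes of f/f, and at 945, 215 and 245 CPM in d/d. Epcam, an epithelial adhesion molecule, gave 541, 200.3 and 188 CPM in f/f and 441, 122 and 166 CPM in d/d. Both genes were thus highest above 20% in either library.

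Of the lists for the epithelial compartments, the 9 luminal markers were higher above 20% by 0.71 (0.64 to 0.78) in f/f and 0.60 (0.49 to 0.70) in d/d. The 9 glandular markers differed by 0.32 (0.033 to 0.60) and 1.39 (1.11 to 1.67), and Aldh1a1, a retinaldehyde dehydrogenase, gave 41 of their 118 UMIs in f/f and 99 of 185 in d/d. Other glandular members went the other way in f/f, with Syn2 at 52.1 against 68.3 CPM and Foxa2 at 5.58 against 13.7 CPM. From 10 to 20% the luminal list was lower, at -1.31 (-1.497 to -1.13) and -1.58 (-1.85 to -1.32). Calb1, the calcium-binding protein calbindin of the luminal epithelium, reached 1804 CPM above 20% against 1027 CPM in the other f/f barcodes, and 1461 against 948 CPM in d/d. It gave 970 of the 1998 luminal UMIs above 20% in f/f and 702 of 1118 in d/d. Members that were lower above 20% included Lrp2 in d/d, at 62.4 against 115 CPM, Slc5a11 in d/d, at 27.1 against 33.5 CPM, and Met in f/f, at 14.9 against 17.2 CPM. The gland transcription factor Foxa2 had only 4 UMIs in the high-share barcodes of f/f and 10 in those of d/d.

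Stromal, mesothelial and endothelial markers moved the opposite way between the sets. The 12 stromal markers stood 0.82 (0.76 to 0.89) above the other barcodes at 10 to 20% in f/f and 1.16 (1.08 to 1.23) in d/d, and 1.47 and 1.26 below them above 20%. Col3a1, a fibrillar collagen, was at 2096 CPM from 10 to 20%, 357 CPM above 20% and 1117 CPM in the other barcodes of f/f. In d/d its levels were 1735, 337 and 702 CPM. Hand2, a progesterone-regulated stromal transcription factor, gave 719, 115 and 565 CPM in f/f and 637, 95.7 and 335 CPM in d/d. Mesothelial markers were higher from 10 to 20% by 0.94 and 1.22 and lower above 20% by 2.89 and 2.63, and Wt1, a transcription factor of mesothelium and stroma, was at 52.1 and 35.4 CPM above 20% against 386 and 301 CPM in the other barcodes. Endothelial markers were higher from 10 to 20% by 1.75 and 1.57, and macrophage markers by 1.13 and 1.72. Smooth muscle markers were higher there by 0.84 and 0.73 and pericyte markers by 1.48 and 1.38. Above 20% smooth muscle markers were at -1.27 and -0.90, whereas pericyte markers were at 0.34 (-0.035 to 0.71) and 0.14 (-0.36 to 0.62).

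**Figure D4:**
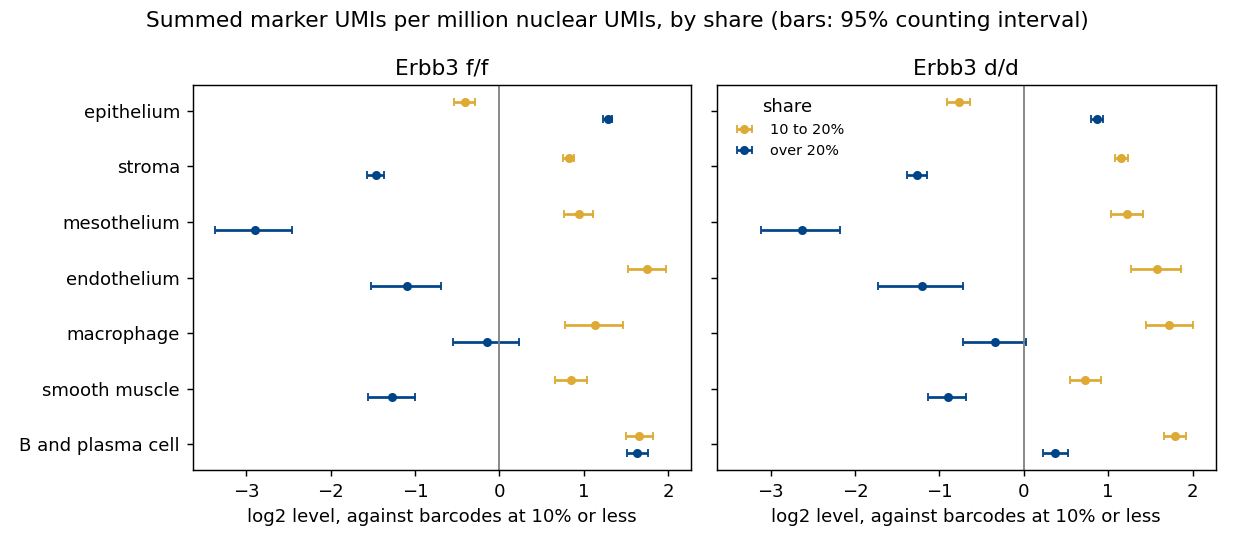
Log2 ratio of summed marker levels in CPM (x axis) in barcodes from 10 to 20% and over 20% against barcodes at or below 10%, for 7 marker lists (y axis), with f/f on the left and d/d on the right; bars are 95% counting intervals. Epithelial markers lie right of 0 only above 20%, and stromal, mesothelial, endothelial and smooth muscle markers only from 10 to 20%.

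Immunoglobulin transcripts were raised in both sets. The list of B and plasma cell markers stood 1.66 and 1.79 above the other barcodes from 10 to 20% in f/f and d/d, and 1.63 and 0.37 above 20%. Almost all of it came from Igha and Igkc, the immunoglobulin A heavy chain and kappa light chain. Igkc was at 676 CPM from 10 to 20%, 639.7 CPM above 20% and 194 CPM in the other barcodes of f/f, and at 1334, 504 and 381 CPM in d/d. The B cell surface gene Ms4a1 was at 0 UMIs in all barcodes of both libraries, and Mzb1, a plasma cell chaperone, was at 50.2 against 56.5 CPM in f/f and at 31.6 against 25.7 CPM in d/d, with intervals of the ratio that included 0 on the log2 scale. The part of free RNA in these levels was not tested. Lists for sperm, preimplantation embryo, erythroid cells and adipocytes had at most 3 UMIs each in the high-share barcodes of either library; Cx3cr1 and Pou5f1 were not analysed here.

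Markers of more than one lineage in a barcode were compared at equal depth, with each barcode thinned to 500 nuclear UMIs. Stromal marker UMIs were then found in 42.6% (33.1 to 52.5%) of 108 high-share epithelium-like barcodes of f/f and in 27.8% (26.2 to 29.5%) of the other epithelium-like barcodes. In d/d the values were 28.0% (19.1 to 38.2%) of 93 and 26.3% (23.8 to 29.0%). Without thinning they were 92.7% against 41.8% in f/f and 85.3% against 34.2% in d/d, at median depths of 3248 against 822 and 3060 against 764 nuclear UMIs. For the stromal list at equal depth, the d/d intervals overlapped and the f/f intervals did not. Other lists did not all go that way. Macrophage marker UMIs were in 4.63% of high-share against 2.30% of other epithelium-like barcodes of f/f, and in 8.60% against 2.75% in d/d. Smooth muscle gave 3.70% against 8.28% in f/f and 15.1% against 20.1% in d/d. Mesothelium gave 4.63% against 3.22% and 3.23% against 4.99%, and endothelium 0.93% against 2.14% and 2.15% against 1.81%. Barcodes with UMIs of 2 lineages cannot be told apart from doublets here, because the doublet caller marked only 0 barcodes from f/f and 1 in d/d. The set with the highest doublet scores held 359 of 5783 barcodes in f/f and 178 of 2125 in d/d. Among high-share barcodes it held 14 of 280 and 12 of 295.

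The nuclear profile was compared gene by gene without mitochondrial genes, as the log2 ratio of CPM in high-share over other barcodes. A gene was counted as different when the ratio was at least 2-fold the same way in both libraries. Over all barcodes 6539 genes had at least 100 UMIs in each library, counted over both groups of barcodes together. Of these 90 were higher (1.38%) and none was lower (0%). In single libraries 126 genes in the f/f library and 147 in d/d were at least 2-fold higher, and 30 and 10 at least 2-fold lower. The 12 highest were Actg1, Ifitm1, Eef1a1, Tuba1c, Ap2m1, Chchd2, Tpt1, Cfl1, Gstm1, Mt2, S100a11 and Rdx, with log2 ratios from 2.31 to 3.53 in f/f and from 2.29 to 3.47 in d/d. The 12 lowest (Depdc1b, Tnnt3, Col7a1, Scube1, Bmp7, Kif11, Etv5, Dnm1, Kif20b, Kif23, Inpp5b and Thbs1) lay between -0.70 and -1.84 in f/f and between -0.70 and -1.23 in d/d. Counts were 78 higher and 149 lower among barcodes of 500 to 2000 nuclear UMIs, and 44 higher and 64 lower without the main high-share cluster. All high-share barcodes held 817256 (f/f) and 727221 (d/d) nuclear UMIs. Those outside that cluster held 375712 and 361447, and those of 500 to 2000 nuclear UMIs held 140215 and 156126. Of the 90 higher genes 36 were still counted at that depth, and 16 of these were at least 2-fold higher there in both libraries. At that depth Tnnt3 and Thbs1 were higher in both libraries, and Col7a1, Scube1, Bmp7 and Dnm1 in d/d. These sums weigh deep barcodes most, and deep high-share barcodes were mostly epithelium-like, so lineage and share cannot be told apart in them.

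Above 20%, set against the other barcodes, 112 of 6051 genes were at least 2-fold higher in both libraries (1.85%) and 153 lower (2.53%). From 10 to 20%, 82 of 5627 were higher (1.46%) and 122 lower (2.17%). The lowest genes above 20%, chosen after their values were seen, included the mesothelial and stromal genes Rspo1, Wt1 and Hoxd10, and Gli1, a target of hedgehog signalling. Hoxd10 stood at 53.9 CPM above 20% against 379 CPM in the other barcodes of f/f and at 27.1 against 196 CPM in d/d. From 10 to 20% the highest, likewise chosen afterwards, were Eef1a1, Gpnmb, a glycoprotein of macrophages, and Tpt1, followed by Igha, Igkc, the endothelial adhesion receptor Adgrl4 and the complement gene C1qb. Eef1a1 and Tpt1 were among the 12 highest of both sets.

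Epithelium-like barcodes allowed a comparison within 1 lineage, with 109 high-share and 3077 other barcodes in f/f and 95 and 1181 in d/d. There 70 of 4446 genes (1.57%) were at least 2-fold higher in both libraries and 2 were lower (0.045%), and no gene was 2-fold different in opposite directions. The counts differed with the barcodes used. Among barcodes of 500 to 2000 nuclear UMIs 62 were higher and 108 lower. Outside the main high-share cluster 21 were higher and 44 lower. High-share barcodes held 33079 (f/f) and 32400 (d/d) nuclear UMIs in the first setting and 94658 and 74789 in the second. In the whole class they held 536202 and 440563. Pearson correlation of the libraries across genes was 0.67 in the class and 0.24 outside that cluster. The part of counting error in these counts was not tested. Actg1, which encodes cytoplasmic gamma-actin, stood at 279.7 CPM in high-share and 14.7 CPM in other barcodes of f/f, a log2 ratio of 4.25 (3.76 to 4.77). In d/d it was at 304 and 13.4 CPM, a ratio of 4.50 (3.71 to 5.41). UMIs of the gene were found in 57.8% of the high-share and 1.30% of the other f/f barcodes, and no single barcode gave more than 7.33% of its high-share UMIs.

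The next genes of the 12 highest had various known roles. Eef1a1, a translation elongation factor, was at 1279 CPM in high-share against 92.6 CPM in other barcodes of f/f, and at 1289 against 67.0 CPM in d/d. Tpt1, the translationally controlled tumour protein, was at 694 against 73.6 CPM and 717 against 59.4 CPM. Chchd2, a protein of the mitochondrial intermembrane space, was at 166 against 12.04 CPM in f/f and at 216 against 11.5 CPM in d/d. Rdx, which encodes radixin and links actin to the membrane, was at 1304 against 176 CPM and 504 against 74.7 CPM. Log2 ratios of the other 7, namely S100a11, Gstm1, Mt2, Jpt1, Tmsb4x, H2bc4 and Ly6a, lay between 2.11 and 2.69 in f/f and between 2.29 and 3.54 in d/d. Several of these genes, such as Actg1, Eef1a1, Tpt1, Tmsb4x and H2bc4, belong to families or have near-identical copies elsewhere in the genome. The same holds for Ifitm1 of the list over all barcodes. Whether related transcripts gave part of their counts was not tested.

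**Figure D5:**
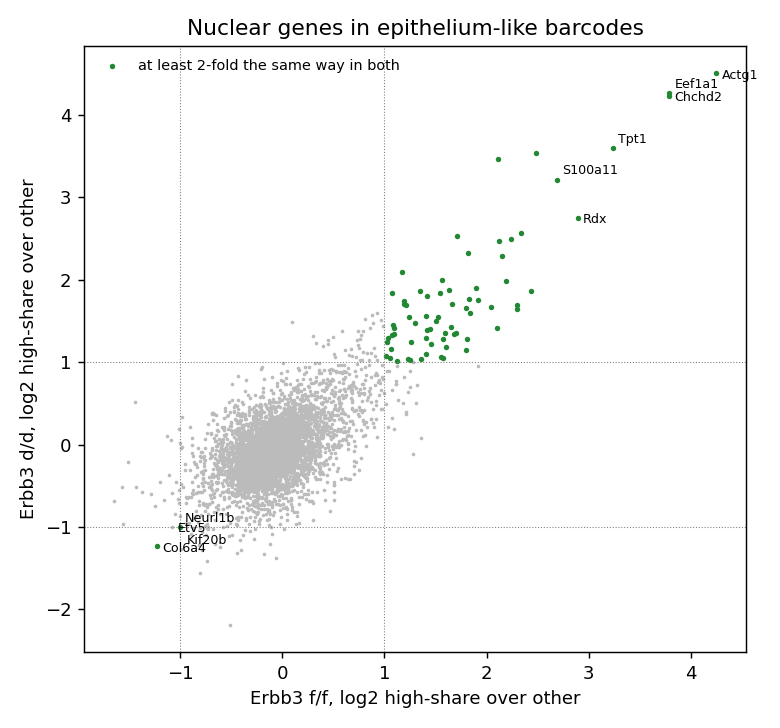
Log2 ratio of CPM in high-share over other epithelium-like barcodes in f/f (x axis) and d/d (y axis), 1 point per nuclear gene (4446 genes), with genes at least 2-fold different the same way in both libraries in green. The 70 higher genes form an arm that ends at Actg1 (4.25 and 4.50), and 2 genes lie beyond the 2-fold lines on the low side.

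The 2 lower genes were Col6a4, a collagen VI chain, at 18.6 against 43.8 CPM in f/f and 74.9 against 176 CPM in d/d, and the ubiquitin ligase Neurl1b at 28.0 against 56.2 CPM and 45.4 against 90.9 CPM. Several of the next lowest serve mitosis and cytokinesis: the kinesins Kif11 and Kif20b, and Cit, Anln, Hmmr and Spag5. The mitotic cluster was unevenly spread, with 450 of all 3186 epithelium-like barcodes in f/f and 590 of 1276 in d/d. Of the high-share ones it held 2 of 109 and 22 of 95. Cluster mix and mitochondrial share cannot be told apart in these levels. Kif11 was at 20.5 against 60.5 CPM in f/f and 102 against 200.1 CPM in d/d, so high-share barcodes of d/d still exceeded the other barcodes of f/f. The remaining 4 of the 12 lowest were Etv5, Ldlrad3, Zfp787 and Ankle1, and all 12 ranged from -0.85 to -1.56 in f/f and from -0.86 to -1.27 in d/d. The low side differed by depth and cluster. Among barcodes of 500 to 2000 nuclear UMIs Col6a4 was higher in d/d (1.20) and Hmmr in f/f (0.86). Etv5 was higher in both libraries outside the main high-share cluster (0.94 and 0.44). These values have no interval and rest on the smaller UMI sums given above. Of the 70 higher genes 25 were still counted in barcodes of 500 to 2000 nuclear UMIs, and 22 of these were at least 2-fold higher there in both libraries.

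Since most of these barcodes were in 1 cluster built from the same genes, the comparison was repeated in epithelium-like barcodes outside it (29 high-share in f/f, 33 in d/d). The same 12 highest genes together stood at 3793 against 1097 CPM in f/f, a log2 ratio of 1.79 (1.63 to 1.95), and at 4198 against 963 CPM in d/d, 2.12 (1.94 to 2.31). All 12 were higher in both libraries there, but they had been chosen on a set that included these barcodes. Of the 70 higher genes 32 were still counted outside that cluster, and 10 of these were at least 2-fold higher in both libraries. Among stroma-like barcodes their sum was at 1977 against 893 CPM in f/f, 1.15 (0.68 to 1.58), and at 1381 against 902 CPM in d/d, 0.62 (-0.0545 to 1.23). Macrophage-like barcodes gave 1.17 (0.79 to 1.54) and 1.28 (0.96 to 1.59), mesothelium-like ones 0.58 (0.15 to 0.98) and 0.93 (0.50 to 1.35), and endothelium-like ones 0.69 (0.24 to 1.13) and 0.30 (-0.32 to 0.89). The sum was higher in all of these classes and both libraries, with an interval that included 0 in d/d for the stroma-like and endothelium-like classes. Much of it came from Eef1a1 and Tmsb4x. In stroma-like barcodes they gave 11 and 15 of 44 high-share UMIs in f/f, and 7 and 12 of 26 in d/d. In mesothelium-like ones they gave 15 and 23 of 58, and 13 and 34 of 79. Actg1 gave 0 (f/f) and 1 (d/d) in stroma-like and 2 and 0 in mesothelium-like barcodes. Gene by gene the direction was less uniform outside the epithelium: 5 of the 12 genes in the f/f library and 11 in d/d were higher in mesothelium-like barcodes, and 9 and 6 in stroma-like ones, which held 44 and 26 high-share UMIs of these genes.

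Genes higher in high-share barcodes had short transcripts. The longest annotated transcript had a median of 1691.5 bases for the 70 genes higher in epithelium-like barcodes and 3731 bases for all 4446 genes counted (GENCODE vM21, lengths found for 99.9% of genes). Of genes with a longest transcript of up to 1000 bases 20.5% were at least 2-fold higher, falling to 4.54% from 1000 to 2000, 1.22% from 2000 to 4000 and 0.302% from 4000 to 8000 bases. Over all barcodes the same bins held 14.4%, 3.54%, 1.22% and 0.167%. In epithelium-like barcodes the median log2 ratio was 0.29 (f/f) and 0.36 (d/d) for genes of up to 1000 bases. It was 0.033 and 0.062 from 1000 to 2000 bases. Whether length itself or another property of these genes moved with the ratio was not tested. The gene lists below were set against all genes counted and not against genes of equal length.

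Nuclear genes for the respiratory chain were read beside the mitochondrial ones, in epithelium-like barcodes first. Complex I subunits had a median log2 ratio of 0.40 in the f/f library and 0.70 in d/d, against -0.092 and -0.076 for all genes counted, and 11 of the 15 counted were above 0 in both libraries. None was 2-fold higher in both; the highest, Ndufa3, was at 160 against 86.3 CPM in f/f and 202 against 90.0 CPM in d/d, and the lowest, Ndufv3, at -0.16 and -0.11. The 6 counted subunits of complexes II to V had medians of 0.36 and 0.16. Of these, Atp5d of ATP synthase (1.06 and 1.16) and Cox8a of cytochrome c oxidase (1.09 and 1.41) were at least 2-fold higher in both libraries, against 1.57% of all genes counted, and Sdhb of complex II was lowest (-0.21 and -0.28). Among genes with transcripts of up to 1000 bases that part was 20.5%, and the share of transcript length in these list values was not tested. Over all barcodes complex I reached medians of 0.35 and 0.53, with Ndufa8 the highest (1.54 and 1.23), and complexes II to V 0.40 and 0.93, with Atp5e the highest (1.42 and 1.58). Genes that maintain and express mitochondrial DNA did not follow: their medians were -0.26 and -0.20, 6 of 8 were below 0 in both libraries and none was 2-fold different, with Nrf1, a transcription factor for nuclear mitochondrial genes, lowest (-0.82 and -0.69). Mitochondrial and cytosolic ribosomal protein genes were not analysed here.

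Among stress genes, 2 of 7 counted heat shock genes were 2-fold higher in both libraries of epithelium-like barcodes, against 1.57% of all genes counted, and the median was 0.67 in the f/f library and 0.64 in d/d. Hspa8, a constitutive chaperone of the HSP70 family, was at 106 against 39.8 CPM in f/f and 170 against 48.8 CPM in d/d. Hspb1, a small heat shock protein, was at 108 against 31.1 CPM and 136 against 61.3 CPM. Hsph1 went the other way (-0.43 and -0.40). Cell death and p53 target genes had medians of 0.090 and 0.092, against -0.092 and -0.076 for all genes counted. None of 10 counted was 2-fold higher in both, and the pro-apoptotic gene Bak1 was highest (0.62 and 1.15). Integrated stress response genes had medians of 0.22 and 0.11 and no member 2-fold different in both. Immediate early genes, which respond rapidly to stimulation and tissue handling, had medians of -0.21 in the f/f library and 0.41 in d/d with no member 2-fold different in both, and the difference between the libraries was not tested.

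Proliferation genes had medians of -0.46 in the f/f library and -0.45 in d/d, and 15 of 23 counted were below 0 in both libraries, with none 2-fold lower in both. The mitotic cluster held 2 of 109 high-share epithelium-like barcodes in f/f and 22 of 95 in d/d. In the whole class it held 450 of 3186 and 590 of 1276, and the part of this mix in the medians was not tested. Cenpe, a centromere kinesin, was at 56.0 against 98.6 CPM in f/f and 107 against 248 CPM in d/d, while the replication clamp gene Pcna was higher (0.71 and 0.90). Of 11 counted estrogen and progesterone response genes 1 was at least 2-fold higher in both libraries, against 1.57% of all genes counted. It was Ltf, at 1186 against 336 CPM in f/f and 1366 against 273.8 CPM in d/d, which is also the leading gene of the cluster that held most high-share epithelium-like barcodes. The estrogen receptor gene Esr1 was lower (-0.50 and -0.33) and the progesterone receptor gene Pgr higher (0.34 and 0.57), both by less than 2-fold. Glycolysis genes had medians of 0.060 and 0.48, with Ldha highest (0.60 and 0.88). Mitophagy and mitochondrial dynamics genes had medians of 0.074 and -0.094, and NF-kB genes 0.097 and 0.047, with no member 2-fold different in both.

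Erbb3 itself was checked in the high-share barcodes. It was at 67.3 CPM (50.7 to 87.6) in f/f and 38.5 CPM (25.6 to 55.6) in d/d, and in the other barcodes at 50.1 and 28.1 CPM. Most of it was epithelial: epithelium-like high-share barcodes gave 49 of 55 UMIs in f/f and 24 of 28 in d/d. Their level was 91.4 CPM (67.6 to 121) in f/f and 54.5 CPM (34.9 to 81.1) in d/d. In the other epithelium-like barcodes it was 76.6 CPM (67.0 to 87.2) and 39.2 CPM (28.2 to 53.2), and this difference between libraries was not tested. Stroma-like high-share barcodes had 0 UMIs in both libraries, with exact 95% upper bounds of 166 CPM for f/f and 196 CPM for d/d, and the other stroma-like barcodes had 4 and 2 UMIs, so the stromal deletion could not be checked at this depth. Where the probes lie relative to the deleted part is not given in the sources used here. Of the other receptors and ligands of this family counted in epithelium-like barcodes, Erbb2 was at -0.27 and 0.083 and Egfr at 0.11 and 0.12, high-share over other.

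Between genotypes, 99 of 4886 nuclear genes were at least 2-fold higher in d/d than in f/f among high-share barcodes (2.03%) and 100 lower (2.05%). These genes had at least 100 UMIs over both libraries together, so a gene could be counted through 1 library alone. Lowest was Rims3, a gene for a synaptic active-zone protein, at 281 CPM in f/f and 6.88 CPM in d/d, and in the other barcodes at 299 and 26.3 CPM. Lrp2, the endocytic receptor megalin, was at 809 and 57.8 CPM, with 771 and 115 CPM in the other barcodes. The transporters Slc5a11, Slc6a14 and Slc2a3 were lower by log2 -3.33, -3.23 and -3.04, and in the other barcodes by -2.75, -2.34 and -2.24. The d/d levels rest on few high-share UMIs: 5 for Rims3 (230 in f/f), 16 for Slc5a11 (181) and 9 for Slc6a14 (95). For Slc6a14 the interval was -4.40 to -2.25, and -3.05 to -1.70 in the other barcodes. The 5 highest were Apobec1, a cytidine deaminase, Dclk1, a kinase, Lig1 and Rrm2, which serve DNA replication, and Psat1 of serine synthesis, with log2 differences from 1.98 to 2.37, and from 1.15 to 2.04 in the other barcodes. They had 18 to 48 high-share UMIs each in f/f and 83 to 169 in d/d. Each of these 10 genes thus differed the same way in both groups of barcodes. Whether the size of the difference depended on the mitochondrial share was not tested, and fewer cells of a type and less RNA per cell cannot be told apart in these sums.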

How the data were processed

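The deposited matrices hold raw UMI counts per gene and barcode, made by the authors with Cell Ranger 9.0.0, per the file headers. The submitters' processing notes name the builds mm10 and GRCm39 without roles, so no coordinates are given. Totals were 6819591 UMIs (f/f, median 821 per barcode) and 2866862 (d/d, median 791). No full barcode was shared between the libraries. Clustering used scanpy 1.11.5 on nuclear genes (2000 variable genes, 30 components, 15 neighbours, Leiden resolution 1), and barcodes needed 200 nuclear genes. Cluster names rest on marker lists, with a scoring rule set after the data were seen. Profiles are sums of UMIs scaled to 1000000 nuclear UMIs, for genes with at least 100 UMIs in each library, which leaves out scarce genes. A sum of 0 was set to 3 UMIs. Intervals are exact Poisson, Clopper-Pearson or conditional binomial; those of differences of shares combine 2 Clopper-Pearson intervals. Named genes are the 12 highest and 12 lowest by the smaller of the libraries' absolute log2 ratios, same sign in both, 5 each way between genotypes, the markers that define a lineage, and list members 2-fold different or extreme. Doublets were kept. The ratio rule was tested on simulated data. Members and lists were chosen with earlier results of these data known. Whether tissue was stored before library construction is not given in the sources used here.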

Additional observations from a re-analysis of the deposited data

Results flagged for a closer look

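Several summed levels lay on opposite sides of 0 in the libraries when high-share barcodes were set against the others, and none of these differences was tested. Stromal markers were at -0.25 in f/f and 0.044 in d/d on the log2 scale, and the pooled value mixes the sets from 10 to 20% and above 20%, which had opposite signs in both libraries. Dendritic cell markers were at -0.15 and 0.062, and Schwann cell markers at -0.22 and 0.24, each from 34 to 67 UMIs in high-share barcodes for the Schwann list and 43 to 50 for the dendritic list. Over all barcodes, gene list medians had opposite signs for immediate early genes (-0.071 in f/f, 0.30 in d/d), the integrated stress response (0.29, -0.049), estrogen and progesterone response genes (0.19, -0.031) and mitophagy and mitochondrial dynamics genes (0.12, -0.067). In epithelium-like barcodes the immediate early genes were at -0.21 and 0.41 and the mitophagy and dynamics genes at 0.074 and -0.094. Genotype and library cannot be told apart in these values.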

How the results depend on the processing

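The share above the limit was 13.3% (f/f) and 27.5% (d/d) with a limit of 5%, 2.56% and 6.68% with 15%, and 1.90% and 4.85% with 20%; thinning to 500 UMIs or asking for 200 genes moved it by less than its interval. With a limit of 20% the high-share medians were 3252 (f/f) and 3031 (d/d) nuclear UMIs and 2133 and 2170 nuclear genes, and 87.3% and 78.6% were epithelium-like. Within 500 to 2000 nuclear UMIs the high-share medians were 876 and 848.5 UMIs and 753.5 and 723.5 genes, the other f/f barcodes had medians of 782 UMIs and 669 genes, and 17.9% and 16.5% of high-share barcodes were epithelium-like. Other resolutions, separate clustering, marker sums and removal of the highest doublet scores kept the epithelium-like part between 38.6 and 40.4% in f/f and between 30.2 and 36.6% in d/d. At resolutions 0.5 and 2 no cluster was named endothelium-like.

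Over all barcodes, genes at least 2-fold lower in both libraries numbered 153 with the 20% limit, 149 at matched depth, 22 by means over barcodes, 21 with a minimum of 20 UMIs (221 higher) and 64 without the main high-share epithelial cluster, an alternative added after seeing the data (44 higher). In epithelium-like barcodes 7 were lower with the 20% limit, 108 at matched depth (25 f/f and 26 d/d high-share barcodes), 34 with 20 UMIs (260 higher) and 44 without that cluster (21 higher). Between genotypes the counts were 493 higher and 390 lower with 20 UMIs, and 24 higher and 38 lower without that cluster. TMM scaling changed no count by more than 1.5 times. High-share epithelium-like barcodes held 33079 (f/f) and 32400 (d/d) nuclear UMIs at matched depth, against 536202 and 440563 in the main setting. Causes of these changes were not tested.

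Marker levels pooled over all high-share barcodes reversed at matched depth: epithelium -0.25 (d/d), luminal -1.05 (f/f) and -1.12 (d/d), glandular -0.15 and -0.79, and in f/f stroma 0.63, mesothelium 1.251 and smooth muscle 1.18. By means over barcodes epithelium (d/d) was -0.077, luminal -0.42 and -0.63, and in f/f glandular -0.075, stroma 0.30, mesothelium 0.91 and smooth muscle 0.62. With the 20% limit endothelium was -1.09 and -1.20 and macrophage -0.15 and -0.34.

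Over all barcodes at matched depth, reversals were Tnnt3 (0.12 in f/f, 0.58 in d/d), Thbs1 (0.40, 0.36) and, in d/d, Col7a1 (0.40), Scube1 (0.49), Bmp7 (0.13) and Dnm1 (0.26; 0.086 by means). Without the main cluster Tnnt3 (0.0084), Col7a1 (0.024), Scube1 (0.021) and Dnm1 (0.074) in d/d, Bmp7 in f/f (0.099) and Thbs1 (0.088 in f/f, 0.090 in d/d) reversed. In f/f the medians of glycolysis (-0.021), heat shock (-0.35) and hormone response genes (-0.55; -0.18 by means) reversed at matched depth, and that of stress response genes by means (-0.030). In epithelium-like barcodes Col6a4 in d/d (1.20 at matched depth, 0.49 by means, 0.19 without the cluster), Hmmr (0.86 in f/f at matched depth, 0.088 in d/d without the cluster) and Etv5 (0.94, 0.44 without the cluster) reversed, as did the medians of mitochondrial DNA upkeep in f/f (0.072) and hormone response genes (-0.035 in f/f, -0.014 in d/d) at matched depth, and in f/f of stress response (-0.068) and hormone response genes (-0.35) without the cluster. No paired analysis was possible because each genotype has 1 library and the replicate numbers were given in accession order.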

Other observations

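Barcodes of this assay join 16 bases for the droplet and a probe label. No full barcode occurred in both libraries, but 158 droplet parts did; 11 of these barcodes in f/f (6.96%) and 22 in d/d (13.9%) lay above the 10% limit. The mast cell list was carried by 1 gene in high-share barcodes: 5 of 6 mast cell markers (Cpa3, Mcpt4, Cma1, Fcer1a and Ms4a2) had 0 UMIs in the high-share barcodes of both libraries.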
